A study of Drosophila melanogaster with 12 samples.

Results

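The RNAs of the 3 genes that the tables name for protein phosphatase 4 (PP4) subunits, flfl (falafel), Pp4-19C and PPP4R2r, were followed through RNA that was bound in precipitates of the protein Slam from early Drosophila embryos. The members were found by symbol, and all 3 were counted in each of 12 libraries, among 15682 genes in one count table and 17559 in the other (15288 identifiers are in both). flfl was singled out because its RNA was high in both comparisons, so its values are given as a description with no test. The question was whether the partners' RNA was enriched with it. All libraries came from whole embryos of 1.5 to 3 h. In the first experiment, lysate of wild-type embryos was precipitated with Slam antibody (3 libraries) or, as the control, with an antibody against the formin Dia (4 libraries). In the second, a biotinylated single-chain antibody against GFP, the GFP-binder, was applied to lysate of embryos with a GFP-slam transgene (2 libraries) or, as the control, to lysate of wild-type embryos, whose libraries are titled OrR (3 libraries). The transgene is a genomic copy of slam with GFP at the N-terminus of the protein, inserted on chromosome 3, and the labels do not say whether these embryos also carried the endogenous gene. In the second experiment a difference between the strains and binding to GFP-Slam cannot be told apart, because both groups differ in genotype and RNA of the lysates was not analysed here.

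PP4 is a serine/threonine phosphatase of the PP2A family, in the PPP class of phosphatases. Its catalytic subunit, in Drosophila Pp4-19C, works in a complex with a regulatory subunit of the R2 type, here PPP4R2r, and with a subunit of the R3 type, Flfl, which recognizes substrates. In Drosophila, the complex is known for its part in centrosome and spindle behaviour of embryos, in the asymmetric localization of the adaptor Miranda in neuroblasts, and, through binding of Flfl to the centromere protein CENP-C, in mitosis. Slam acts at the furrow canal, the tip of the ingrowing membrane during cellularization of the blastoderm.

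Only flfl RNA of the 3 PP4 subunits was higher with the bait in both experiments. It was 5.48-fold higher with Slam antibody than with Dia antibody and 9.02-fold higher in GFP-slam than in wild type. Pp4-19C RNA differed by neither comparison beyond the spread of libraries, with fitted ratios of 0.827 and 0.944. PPP4R2r RNA was lower with Slam antibody (ratio 0.574) and had a ratio of 1.04 in GFP-slam. The control antibody binds a protein of its own, and RNA of the lysates was not analysed here. A ratio between the antibodies thus cannot tell a change with Slam antibody from an opposite change with Dia antibody.

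The libraries held 4383704 to 31647090 counts in the antibody experiment and 20170936 to 47249817 in the GFP-binder experiment. The RNA of slam itself took 3.37% to 10.02% of the counts with Slam antibody and 0.0349% to 0.140% with Dia antibody, and 1.07% and 1.17% in GFP-slam against 0.0630% to 0.0728% in wild type. dia RNA was in turn at 665 to 3364 CPM (the count of a gene scaled to a common library size) with Dia antibody and 144 to 233 CPM with Slam antibody. CPM here and below were scaled by TMM, a factor for each library that evens out the typical gene, and the experiments were scaled apart, so levels are compared within each experiment only. Of 8 markers of the blastoderm, all passed the minimum of counts in the antibody table and 7 in the GFP-binder table. Of these, 1 was called, in the antibody experiment, where 6.84% of all genes passed as higher and 3.62% as lower. It was nullo, a gene of cellularization, higher with Slam antibody (170 ± 9.54 against 42.9 ± 10.7 CPM, SD, n = 3 and 4, log2 ratio 2.00, edgeR adjusted p = 1.48e-04). In GFP-slam nullo had 46.6 ± 3.69 against 31.5 ± 4.15 CPM (SD, n = 2 and 3, log2 ratio 0.56, edgeR adjusted p = 0.749). The groups did not overlap, and 8.98% of all genes likewise had all libraries higher in GFP-slam. The list's median log2 ratio was 0.16 between the antibodies and -0.31 in GFP-slam, and what part embryo stage has in the ratios of flfl was not tested. The cellularization gene Sry-alpha was between 154 and 519 CPM in every antibody library but at 0 CPM in 4 GFP-binder libraries and 0.0691 CPM in the other, a difference between the tables and not between the groups. Eggshell markers of follicle cells did not exceed a group mean of 0.345 CPM. Of 4 markers of later embryos, the muscle myosin gene Mhc reached 1351 CPM in Dia antibody 1 and 52.4 to 383 CPM in the other antibody libraries. Means of the others with Slam and Dia antibody were 36.8 and 27.2 CPM for elav, 0.252 and 0.105 CPM for Act88F, and 0 CPM in both for Cpr47Ea. The other markers of later embryos are given as group means only, so high Mhc in Dia antibody 1 is reported as the value of 1 marker. Embryo age in that library was not tested. With the GFP-binder Mhc had 14.5 and 204 CPM in GFP-slam and 33.2 to 150 CPM in wild type.

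flfl, which encodes the R3 subunit, lies on chromosome 3R from 13683921 to 13693905 in the deposited tables of comparisons, which list a transcript length of 3888 bases and name no genome build. Its level was 9036, 3334 and 2288 CPM in Slam antibody 1, 2 and 3. With Dia antibody it was 1485, 508, 773 and 797 CPM in libraries 1 to 4. The groups did not overlap, the lowest Slam library lying above the highest Dia library, but the Slam libraries differed among themselves by more than any other group, with a coefficient of variation of 74.3%. The means were 4886 ± 3632 CPM (SD, n = 3) and 891 ± 417 CPM (SD, n = 4). The fitted log2 ratio was 2.46 (SE 0.518), with a 95% interval of 1.27 to 3.64, which is a fold of 2.41 to 12.5. This interval takes no account of the choice of flfl for a high ratio, so it is a description and not a test. Among genes tested in this comparison, 5.5% were more than 4-fold higher and 15.2% had libraries that were all higher with Slam antibody than with Dia antibody. flfl ranked 270 of 7466 by ratio. Without Slam antibody 1, the library with the highest flfl, the log2 ratio was 1.62 (3.07-fold).

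In the GFP-binder experiment flfl was at 6396 CPM in GFP-slam 1 and 4078 CPM in GFP-slam 3. In wild type it was at 529, 682 and 531 CPM in libraries 1 to 3. Both GFP-slam libraries were far above all of wild type, and the wild-type libraries were close to each other. The means were 5237 ± 1639 CPM (SD, n = 2) and 581 ± 87.6 CPM (SD, n = 3), and the log2 ratio was 3.17 (SE 0.300), with an interval of 2.50 to 3.84. This interval likewise takes no account of the choice of flfl. Here 1.16% of genes were more than 4-fold higher and 8.98% had all libraries higher in GFP-slam, and flfl ranked 38 of 8767. As a share of all counts in a library, with no scaling between libraries, flfl took 0.240% to 0.760% with Slam antibody, 0.0560% to 0.144% with Dia antibody, 0.447% and 0.582% in GFP-slam and 0.0534% to 0.0671% in wild type. The interval of the difference between the log2 ratios of flfl in the 2 experiments, antibody minus GFP-binder, was -2.16 to 0.77.

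**Figure D1:**
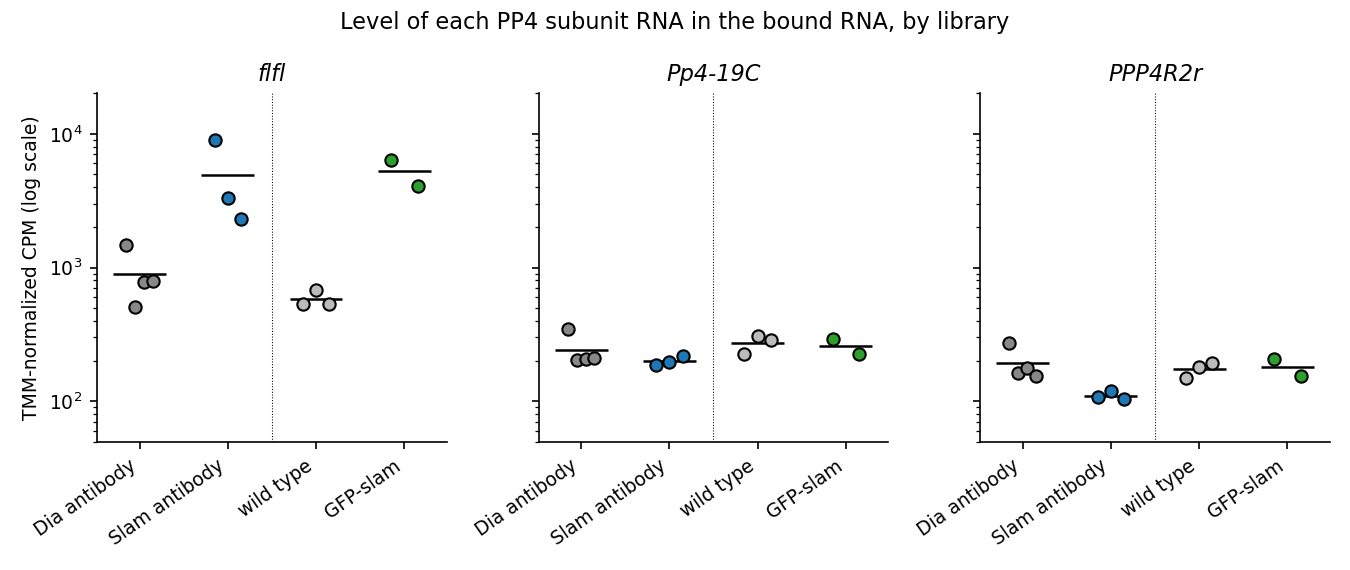
Level of the RNA of each PP4 subunit in TMM-normalized CPM (log axis). Each point is 1 library and each line a group mean, and the dotted line parts the 2 experiments, which were scaled apart. flfl is higher with Slam antibody and in GFP-slam with no overlap (2288 to 9036 against 508 to 1485 CPM, and 4078 and 6396 against 529 to 682 CPM), whereas Pp4-19C stays between 187 and 349 CPM in all 12 libraries.

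Pp4-19C, on the X chromosome, encodes the catalytic subunit. Its level was 187, 196 and 219 CPM in Slam antibody 1, 2 and 3, and 349, 203, 207 and 211 CPM in Dia antibody 1 to 4. Apart from Dia antibody 1, which was above all others, the libraries of both groups lay within the same narrow range. The means were 200 ± 16.8 CPM (SD, n = 3) and 242 ± 71.1 CPM (SD, n = 4). The fitted log2 ratio was -0.27 (SE 0.236, adjusted p = 0.471 with the quasi-likelihood test of edgeR and Benjamini-Hochberg adjustment over all genes), with an interval of -0.79 to 0.24. In folds this interval is 0.578 to 1.18. Without Dia antibody 1 the log2 ratio was -0.05. Mhc was also highest in that library, and whether this bears on the level of Pp4-19C was not tested.

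In the GFP-binder experiment the level of Pp4-19C was 292 CPM in GFP-slam 1 and 225 CPM in GFP-slam 3. Wild type 1 to 3 had 227, 307 and 288 CPM. Each GFP-slam library fell within or at the edge of the wild-type range. The means were 259 ± 47.7 CPM (SD, n = 2) and 274 ± 41.8 CPM (SD, n = 3). The log2 ratio was -0.08 (SE 0.282, adjusted p = 0.9999 in the same test), and its interval of -0.71 to 0.55 is a fold of 0.610 to 1.46. Pp4-19C ranked 5139 of 7466 and 5701 of 8767 by ratio.

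PPP4R2r, also on the X chromosome, encodes the R2 subunit. Its level was 107, 118 and 105 CPM in Slam antibody 1, 2 and 3. With Dia antibody it was 271, 163, 179 and 154 CPM in libraries 1 to 4. All Slam libraries were lower than all Dia libraries, and Dia antibody 1 was again the highest. The means were 110 ± 7.35 CPM (SD, n = 3) and 192 ± 54.1 CPM (SD, n = 4). The fitted log2 ratio was -0.80 (SE 0.230), with an interval of -1.30 to -0.30, and passed the edgeR test as lower (adjusted p = 0.0460). Of all genes tested, 3.62% passed as lower and 12.2% had all libraries lower with Slam antibody. PPP4R2r ranked 7138 of 7466. The call lies near the threshold: it was lost with normalization by RLE (adjusted p = 0.0515) and without Dia antibody 1 (log2 ratio -0.59, adjusted p = 0.0678), Slam antibody 1 (adjusted p = 0.108), Slam antibody 2 (0.127) or Slam antibody 3 (0.145).

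In GFP-slam 1 and 3 PPP4R2r was at 208 and 153 CPM, and in wild type 1 to 3 at 149, 180 and 194 CPM. The groups overlapped, since GFP-slam 3 lay near the lowest wild-type library and GFP-slam 1 above the highest. The means were 181 ± 39.0 CPM (SD, n = 2) and 175 ± 22.9 CPM (SD, n = 3), and the log2 ratio was 0.05 (SE 0.269, adjusted p = 0.9999 in the edgeR test, interval -0.55 to 0.65). In folds the interval is 0.682 to 1.57. Only 0.525% of genes passed as higher and 0.228% as lower in this experiment. Neither partner passed in it under any alternative run.

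**Figure D2:**
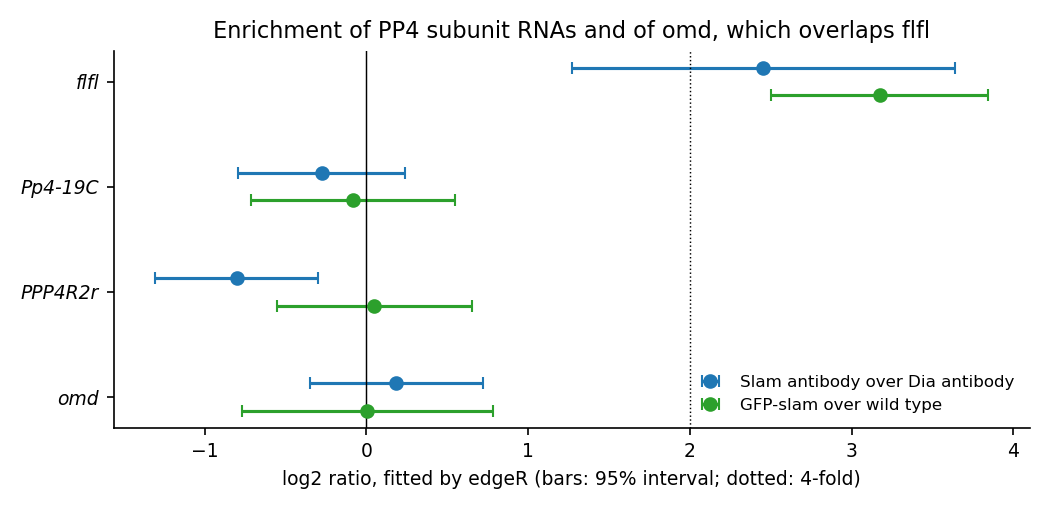
Fitted log2 ratios (points) with 95% intervals (bars) of the PP4 subunit RNAs and of omd, a gene that overlaps flfl, for Slam antibody over Dia antibody (blue, 3 and 4 libraries) and GFP-slam over wild type (green, 2 and 3 libraries). flfl lies at 2.46 and 3.17, to the right of the dotted line at 4-fold, and the intervals of both partners end at or below 0.65. flfl was chosen for its values, so its bars are a description and not a test.

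Whether the partners behaved differently in the 2 experiments was tested in a fit of all 12 libraries over the 7197 genes that passed both minimums of counts. The difference of the log2 ratios, antibody minus GFP-binder, was -0.17 (SE 0.348, adjusted p = 0.812 with edgeR) for Pp4-19C. For PPP4R2r it was -0.83 (SE 0.337, interval -1.55 to -0.11, unadjusted p = 0.0268), which did not pass after adjustment (adjusted p = 0.199). Of all genes, 3.25% passed this test. The lower PPP4R2r RNA with Slam antibody was thus not shown to be particular to the antibody experiment. Exact two-sided permutation tests of CPM gave p = 0.0571 for PPP4R2r and p = 0.343 for Pp4-19C between the antibodies (0.171 and 0.514 after Benjamini-Hochberg adjustment over 6 such tests), where 0.0571 is the smallest p that 3 against 4 libraries allow. For the GFP-binder both exact permutation tests gave p = 0.8, where the smallest possible is 0.2.

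Ratios of counts of one subunit to another within a library need no scaling between libraries. They also depend on gene length, so they are read only between libraries and not as a proportion of molecules. There were 48.4, 17.0 and 10.4 counts of flfl per count of Pp4-19C in Slam antibody 1, 2 and 3, and 4.26, 2.50, 3.73 and 3.78 in Dia antibody 1 to 4. In GFP-slam 1 and 3 the ratio was 21.9 and 18.1, and in wild type 1 to 3 it was 2.33, 2.22 and 1.85. Every library with a Slam bait was above every control library of its experiment. Since flfl was chosen for being high with the bait and Pp4-19C varied less, this order is a description and adds no separate support. Per count of PPP4R2r, flfl had 21.9 to 84.4 counts with Slam antibody against 3.11 to 5.47 with Dia antibody, and 26.6 and 30.7 in GFP-slam against 2.74 to 3.78 in wild type.

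The ratio of the partners to each other varied less than the ratios with flfl, which was chosen for its large changes. Other pairs of genes were not compared. Counts of Pp4-19C per count of PPP4R2r were 1.74, 1.65 and 2.09 in Slam antibody 1, 2 and 3 and 1.29, 1.24, 1.16 and 1.37 in Dia antibody 1 to 4. The antibody groups did not overlap, and the means of 1.83 ± 0.233 (SD, n = 3) and 1.26 ± 0.0877 (SD, n = 4) gave an exact two-sided permutation p of 0.0571, the smallest possible (0.171 after adjustment over the 6 tests). In GFP-slam the ratio was 1.40 and 1.47 and in wild type 1.52, 1.70 and 1.48, which is the opposite order, with an exact permutation p of 0.2 (0.4 after adjustment). This ratio was chosen after the counts were seen.

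**Figure D3:**
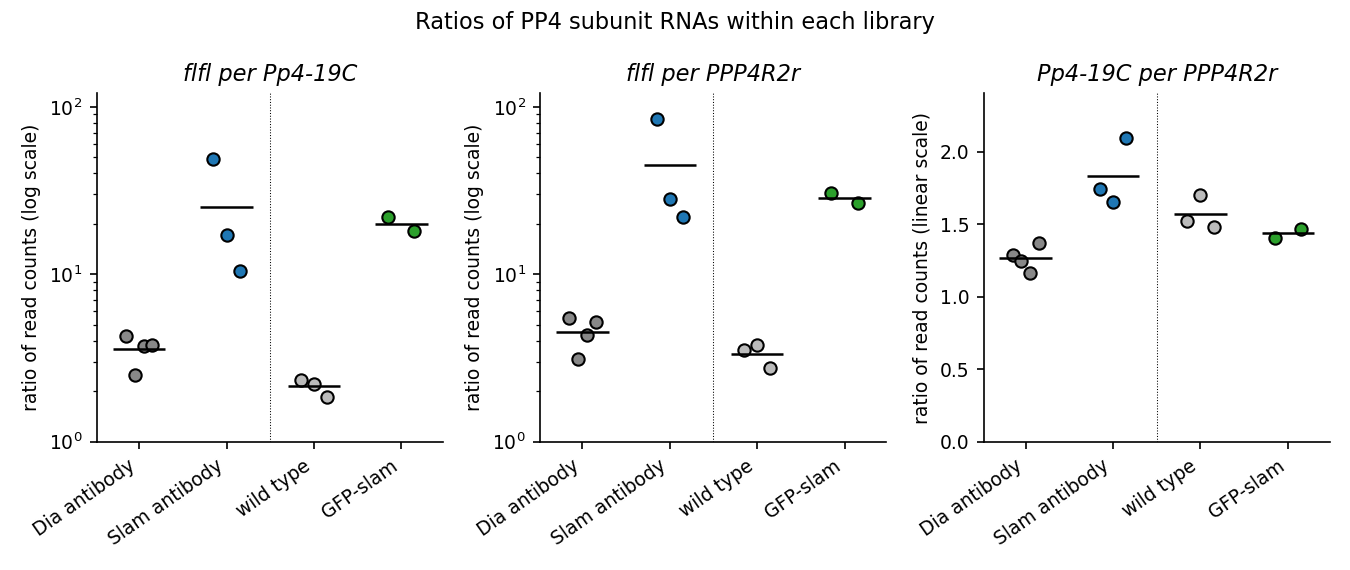
Ratios of read counts of PP4 subunit RNAs within each library (points) with group means (lines). The first 2 panels have log axes and the last a linear axis from 0. Counts of flfl per count of Pp4-19C are 10.4 to 48.4 in libraries with a Slam bait and 1.85 to 4.26 in control libraries, while counts of Pp4-19C per count of PPP4R2r stay between 1.16 and 2.09.

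The level of flfl was also set against that of slam, the RNA of the bait. Counts of slam per count of flfl were 13.2, 11.0 and 14.03 in Slam antibody 1, 2 and 3, although slam itself ranged from 32099 to 119176 CPM there. Slam antibody 1, the library with the most slam RNA, was thus also the one with the most flfl RNA. In GFP-slam 1 and 3 the ratio was 1.84 and 2.61. In control libraries it was 0.436 to 1.21 with Dia antibody and 0.939 to 1.36 in wild type. slam RNA rose by a log2 ratio of 6.29 (SE 0.767) between the antibodies and 4.03 (SE 0.253) for the GFP-binder, more than flfl in each.

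In RefSeq's annotation of Release 6, used here for gene names and neighbours only, flfl overlaps omd, a gene for an Integrator subunit, by 3290 bases. Whether reads were counted by strand is not given in the sources used here, so reads of the shared stretch cannot be assigned. omd had 86.1, 66.2 and 73.5 CPM with Slam antibody and 49.0, 60.3, 55.6 and 99.0 CPM with Dia antibody. With the GFP-binder its level was 67.1 and 87.4 CPM with the transgene, against 72.6, 111 and 47.0 CPM without it. The groups overlapped in both experiments, and the log2 ratios were 0.19 (SE 0.246, adjusted p = 0.655 with edgeR) and 0.01 (SE 0.346, adjusted p = 0.9999). The nearest annotated genes beside Pp4-19C (Obp19d and cactin, 107 and 66 bases away) and PPP4R2r (CG2887 and CG32687, 344 and 84 bases away) do not overlap them.

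The genes whose centred log2 levels over the 12 libraries lay nearest to those of flfl, out of 7196, were Tes, cindr, cher, CG13716 and CG4586. Their root mean square differences from flfl were 0.54, 0.73, 0.81, 0.83 and 0.87 on the log2 scale, where the median gene had 1.49. Tes, the gene of the LIM-domain protein Testin, had log2 ratios of 2.53 (SE 0.331) and 2.15 (SE 0.285) for the antibody and the GFP-binder. cindr, an adaptor of the CIN85 and CD2AP family, had 1.14 (SE 0.257) and 2.67 (SE 0.279), and cher, the filamin of the fly, 1.22 (SE 0.496) and 1.61 (SE 0.257). The libraries shared by all genes shape such likeness, and it is a description only. Pp4-19C came at place 3701 with a difference of 1.49, PPP4R2r at place 5632 with 1.59, and omd at place 1821 with 1.40. With Pearson's r in place of this measure, only Tes and CG13716 of these genes stayed among the 5 nearest.

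Other genes were followed as 3 lists of 37 genes in all. They were 17 catalytic subunits of other PPP phosphatases, 13 regulatory subunits of PP1, PP2A and calcineurin, and 7 genes known to act with PP4. The last 7 are not listed as phosphatase subunits. Of all 37, 26 were tested in the antibody experiment and 28 in the GFP-binder experiment. With Slam antibody, 0 passed as higher, against 6.84% of all genes, and 3 as lower (11.5%, against 3.62% of all genes), and their median log2 ratio was -0.32, against -0.03 for all genes. By list the median was -0.51 for the catalytic subunits, -0.30 for the regulatory subunits and 0.13 for the genes that act with PP4. A low median was not particular to phosphatase subunits. The 4 maternal markers osk, nos, bcd and CycB had a median of -0.37 there (-0.90 to -0.30, 0 passing), and of 0.17 in GFP-slam. In the GFP-binder experiment 0 listed genes passed with edgeR, against 0.525% (higher) and 0.228% (lower) of all genes. At an unadjusted edgeR p under 0.05, 2 were higher and 0 lower, against 270 and 252 of all 8767 genes. DESeq2 passed 1 of the listed genes, and the median log2 ratio of the 3 lists together was 0.02, as for all genes. No gene of the 3 lists was more than 4-fold higher in either experiment, against 5.5% and 1.16% of all genes. In lists of this size 0 is near that share. flfl, chosen for its values, was above 4-fold in both, though its antibody interval began at 2.41-fold.

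Of 17 catalytic subunits of other PPP phosphatases, 8 were tested between the antibodies, and their log2 ratios ran from -0.73 to -0.12. Pp1-87B, a catalytic subunit of PP1, was lower with Slam antibody (224 ± 24.2 against 372 ± 49.2 CPM, SD, n = 3 and 4, log2 ratio -0.73, edgeR adjusted p = 0.0412). mts, the catalytic subunit of PP2A and the most abundant of the list by CPM, had 432 ± 18.4 against 651 ± 160 CPM (log2 ratio -0.59), without overlap but short of the threshold (edgeR adjusted p = 0.108). Of all genes, 12.2% were lower without overlap. Pp1alpha-96A, another PP1 subunit, and PpD3, the PP5 of the fly, had log2 ratios of -0.29 and -0.14 and overlapping groups. In the GFP-binder experiment the 8 tested genes had log2 ratios from -0.13 to 0.53, with -0.08 for Pp1-87B and -0.00 for mts.

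Of 13 regulatory subunits of PP1, PP2A and calcineurin, 12 were tested between the antibodies. tws, the B subunit of PP2A, was lower with Slam antibody (165 ± 11.9 against 312 ± 70.9 CPM, SD, n = 3 and 4, log2 ratio -0.92, edgeR adjusted p = 0.0254). So was sra, a regulator of calcineurin (88.8 ± 6.86 against 137 ± 16.3 CPM, log2 ratio -0.62, adjusted p = 0.0494). wdb, a B' subunit of PP2A, had a log2 ratio of -0.61 and did not pass (adjusted p = 0.0693), and the scaffold Pp2A-29B and the B' subunit wrd had -0.35 and -0.29. With the GFP-binder all 13 were tested, with ratios of -0.05 for tws and 0.19 for sra. Like PPP4R2r, the 3 listed genes that passed lost their call without Slam antibody 1, 2 or 3, and without Dia antibody 1 or 3 all but tws did. sra also lost it with RLE (adjusted p = 0.0527), with another filter on low counts (0.0528) and with no minimum of counts (0.0647). With the replicate number as a block, 7 listed genes passed in place of 3, adding mts (lower), Mbs (lower), smo (higher) and ci (higher). Of all genes, 782 then passed as higher and 636 as lower.

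Of 7 genes known to act with PP4, 6 were tested between the antibodies. With edgeR 0 passed, against 6.84% (higher) and 3.62% (lower) of all genes. At an unadjusted edgeR p under 0.05, 1 was higher and 2 were lower, against 1154 and 1025 of all 7466 genes. DESeq2 passed smo, which encodes a receptor of the hedgehog pathway, as higher. With the replicate number as a block, 2 passed as higher, ci (log2 ratio 1.15, SE 0.209, edgeR adjusted p = 0.00383) and smo (log2 ratio 0.65, SE 0.207, adjusted p = 0.0456). Of all genes, 782 passed as higher with the block. Without the block the log2 ratio was 0.70 (adjusted p = 0.192) for mira, the gene of Miranda, 0.82 (adjusted p = 0.223) for ci, the transcription factor of the hedgehog pathway, and -0.33 (adjusted p = 0.430) for gammaTub23C, a gamma-tubulin. In the GFP-binder experiment the same genes had 0.28, -0.66 and -0.15, and Cenp-C, the partner of Flfl at the centromere, had 0.31 (195 ± 14.8 against 157 ± 17.9 CPM, SD, n = 2 and 3). Each had an edgeR adjusted p of 0.9999. The value of Cenp-C comes from the row named CG31258 in the GFP-binder table. The gene was matched to no row of the antibody table and was not analysed there.

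**Figure D4:**
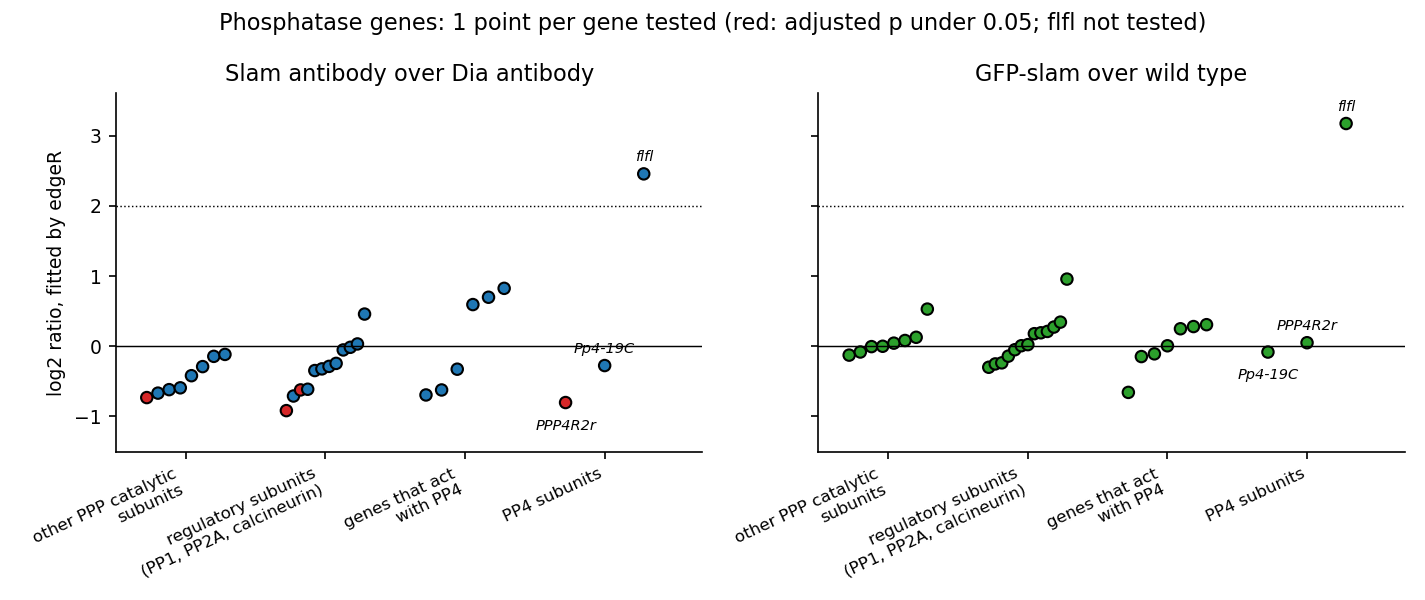
Fitted log2 ratios of phosphatase subunit genes and of genes that act with PP4, 1 point per gene tested, grouped by list. The antibody comparison is on the left and the GFP-binder comparison on the right. The dotted line marks 4-fold, and red points had an edgeR adjusted p under 0.05. flfl, chosen for its values, was not tested and is left uncoloured by this rule. At 2.46 and 3.17 it is the only point above the dotted line, where 5.5% and 1.16% of all genes lie. The red points, Pp1-87B, tws, sra and PPP4R2r, lie between -0.92 and -0.62.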

How the data were processed

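Unnormalized read counts per gene were deposited for each library, 1 table per experiment. Tools named in the submitters' processing notes, with no roles, are STAR (2.5.0), DESeq2, bcl2fastq (2.17.1.14) and FastQC (0.11.4). Which counter, strand setting and genome build were used is not given in the sources used here. Deposited tables of each comparison also hold log2 ratios, signals (mean normalized counts) and p-values computed by the authors, which were not used. The coordinates and listed length of flfl were taken from them, and the coordinates of 1783 genes matched by symbol were compared with RefSeq Release 6, in which 1782 share a start or an end.

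Each experiment was fitted over all genes with edgeR 4.0.16 in R 4.3.3 (TMM, robust quasi-likelihood test, Benjamini-Hochberg adjustment, threshold 0.05). Genes needed a mean normalized count of 50 (antibody) or 10 (GFP-binder), which 7466 and 8767 passed. These limits follow the study's methods. SEs were computed as the size of the log2 ratio over the root of the F statistic. Permutation tests used scipy 1.17.1 in Python 3.11.15. Likeness used log2 CPM with a prior count of 2. Alternatives were RLE or total-count normalization, DESeq2 1.42.0, other minimums of counts, both experiments in 1 fit, and each library left out.

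The members, gene lists and tests were chosen with earlier results of these data known. Besides the PP4 subunits, slam, dia, omd and some stage markers, the text names the 4 most abundant members of each list, those that passed, and the 5 genes nearest to flfl. Pp2B-14D, CG4733, Mbs and smo were named after their values were seen. The study's methods call the replicates biological. The labels do not say which libraries came from separate embryo collections. Replicate numbers are shared between groups. Deviations from group means of same-numbered antibody libraries correlated across genes at 0.254, 0.391 and 0.151, so the number was also fitted as a block. Differently numbered pairs ran from -0.248 to 0.278, the highest being Slam antibody 3 with Dia antibody 4. The number was thus not shown to mark a shared batch. Same-numbered GFP-binder pairs had 0.191 and 0.208, and differently numbered pairs ran from -0.208 to 0.0126. With 2 GFP-slam libraries, their deviations are mirror images, so the values with any 1 wild-type library differ only in sign.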

Additional observations from a re-analysis of the deposited data

Results flagged for a closer look

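Among the 32 genes examined in the 4 Dia antibody libraries, Pp4-19C had a library far from the others: Dia antibody 1 was at 349 CPM and the next highest at 211 CPM, a gap of 0.948 of the group's range. How often chance alone gives such a gap was not tested, and 32 genes were looked through to find it.

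Pp2B-14D, a catalytic subunit of calcineurin, had log2 ratios of opposite sign in the experiments, -0.67 (SE 0.215) for Slam antibody over Dia antibody and 0.53 (SE 0.224) for GFP-slam over wild type. Fitted apart in edgeR, neither passed (adjusted p = 0.0657 and 0.749). In the edgeR fit of all 12 libraries their difference of -1.18 (SE 0.291) passed (adjusted p = 0.0399), as did 3.25% of all genes. In that fit the ratio between the antibodies also passed (-0.69, adjusted p = 0.0295). That ratio likewise passed with library totals (adjusted p = 0.0347), with DESeq2 (0.0451), without Dia antibody 3 (0.0432) and without Slam antibody 1 (0.0463). Its levels were 93.1, 59.4 and 68.7 CPM with Slam antibody and 97.0 to 134 CPM with Dia antibody, and 126 and 119 CPM in GFP-slam against 82.7 to 85.9 CPM in wild type.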

How the results depend on the processing

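Log2 ratios of flfl stayed above 0 under every alternative run. Since flfl was chosen for high values and its groups did not overlap, this adds no separate support. With a library left out in turn the log2 ratios of flfl ranged from 1.62 (without Slam antibody 1) to 2.82 for the antibodies. For the GFP-binder they ranged from 2.81 (without GFP-slam 1) to 3.43. Pp4-19C ranged from -0.47 to -0.05 and from -0.28 to 0.063, the last without GFP-slam 3, and PPP4R2r from -0.99 to -0.59 (adjusted p 0.0309 to 0.145) and from -0.19 (without GFP-slam 1) to 0.22, with -0.08 without wild type 1. Under RLE the log2 ratio of PPP4R2r between the antibodies was -0.82. The difference between the experiments ranged from -0.31 to 0.049 (without Dia antibody 1) for Pp4-19C and from -0.997 to -0.63 for PPP4R2r. Without a GFP-slam library the remaining one is assumed to vary like wild type.

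With the replicate number as a block, the antibody log2 ratios were 2.30 for flfl, -0.29 for Pp4-19C and -0.86 for PPP4R2r (adjusted p = 0.0208), and those of the GFP-binder were 3.27, 0.0053 and 0.07. The block changed no call of a PP4 subunit. It raised the genes that passed between the antibodies from 511 to 782 (higher) and from 270 to 636 (lower), and the listed genes from 3 to 7. For the GFP-binder it gave 75 higher in place of 46 and 58 lower in place of 20.

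Between the antibodies, DESeq2 passed 772 genes as higher and 494 as lower, fits without a minimum 803 higher, and library totals alone 457 higher and 416 lower. Leaving out a library gave 285 to 562 higher and 24 (without Slam antibody 2) to 445 lower. Listed genes passing were 6 with totals, DESeq2 and both experiments in 1 fit, and 0 to 4 with a library left out. For the GFP-binder, DESeq2 passed 108 higher and 86 lower, fits without a minimum 121 and 165, and both experiments in 1 fit 29 higher. Leaving out a library gave 15 to 98 higher and 7 to 81 lower. Of listed genes, 1 passed with DESeq2 (CG4733) and 0 with a library left out. Where a fit holds fewer libraries its test has less information, and the cause of other shifts was not tested. Ratios per kilobase of transcript were not run, since lengths of the partners were not used here. With 2 to 4 libraries a group, the 95% intervals of the partners' folds reached as low as 0.405 and as high as 1.57.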
